A study of Homo sapiens with 12 samples.

Results

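The UDP-sugar and hexosamine enzymes were followed as 9 genes, UGP2, UGDH, UXS1, GFPT1, PGM3, UAP1, OGT, OGA and GNE, taken by symbol from the 60649 genes of each count table. All 9 were found, and each passed the filter on low counts that left 16683 genes for testing. RNA-seq was done on 12 libraries from spheroids of SBC3, an established human small cell lung cancer cell line, with 3 libraries in each of 4 groups: a control, teriflunomide, lurbinectedin, and the combination of both drugs. Teriflunomide inhibits DHODH, an enzyme of de novo pyrimidine synthesis, and lurbinectedin binds DNA and blocks transcription. The labels give neither doses nor the time of exposure, all groups come from the same line, and nothing says that replicates came from separate cultures. The p-values therefore measure only the spread between these libraries, which may be technical.

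A UDP-sugar is a sugar activated by coupling to UDP, the form in which cells hand sugars to glycoproteins, proteoglycans, glycolipids and glycogen. UGP2 couples UTP to glucose phosphate, UGDH oxidises the resulting UDP-glucose to UDP-glucuronate, and UXS1 turns that into UDP-xylose, the sugar that anchors glycosaminoglycan chains to proteoglycans. In the hexosamine pathway, GFPT1 catalyses the rate-limiting first step, PGM3 moves the phosphate of N-acetylglucosamine (GlcNAc) phosphate, and UAP1 couples that product to UTP, giving UDP-GlcNAc. OGT transfers GlcNAc from UDP-GlcNAc to serine and threonine residues of nuclear and cytosolic proteins, OGA removes it again, and GNE takes UDP-GlcNAc into sialic acid synthesis. UGP2 and UAP1 are thus the members that consume UTP itself, the end product of the pathway in which DHODH acts, while OGA uses no UDP-sugar.

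Total counts per library lay between 23206414 and 33222162, and counts of single members between 254 and 8987. Teriflunomide replicate 3 and combination replicate 2 stood apart, with 22.6% and 24.9% of their counts on the mitochondrial genome. The shares were 8.42% to 8.43% in the other teriflunomide libraries, 13.1% to 14.6% in the other combination libraries, 6.26% to 7.17% in control and 13.8% to 17% with lurbinectedin. Several markers of the line's identity differed between the 6 libraries with lurbinectedin and the 6 without it, with no overlap in range. Such separation was common. Of all genes tested, 83.2% did not overlap between lurbinectedin and control, 77.2% between the combination and control, and 70.7% between the combination and teriflunomide. The share between the full sets of 6 was not counted. Among neuroendocrine markers of small cell lung cancer, INSM1 had no count in any library, SYP had 29.8 to 36.2 CPM with lurbinectedin and 14.1 to 17.5 CPM without it, and NEUROD1 had 1.5 to 2.97 and 3.66 to 6.51 CPM. YAP1, the marker of another subtype, had 60.2 to 128 CPM with lurbinectedin and 236 to 343 CPM without it. Of the epithelial markers, KRT8 had 373 to 444 and 196 to 306 CPM, while EPCAM, CDH1 and KRT18 had at most 0.0638, 0.0485 and 0.322 CPM. The fibroblast marker COL1A1 had 93.6 to 114 CPM with lurbinectedin and 233 to 272 CPM without it. The part of these differences in the results was not tested. The leukocyte marker PTPRC and the endothelial marker PECAM1 had at most 0.0957 and 0.545 CPM. CPM here is the count of a gene scaled to a library of common size, with effective library sizes from TMM. Rises and falls on this scale are relative to the other genes, and the amount of RNA per cell cannot be read from them. In bulk RNA, fewer cells of a type and less RNA per cell cannot be told apart.

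Per kilobase of annotated exon, the scale on which different genes can be compared, UAP1 was the highest of the 9 in control spheroids, with 29.1 ± 2.0 CPM per kb (SD, n = 3). UGDH had 19.9 ± 0.863, OGA 19.4 ± 0.755 and GFPT1 18.6 ± 0.652 CPM per kb (n = 3), and the libraries of these genes overlapped in range. OGT followed with 11.3 ± 0.476, GNE with 10.7 ± 0.208, PGM3 with 8.10 ± 0.0636, UGP2 with 6.82 ± 0.198 and UXS1 with 3.57 ± 0.0166 CPM per kb (n = 3). The ranges of these neighbours did not overlap, although OGT and GNE were separated by less than the sum of their SDs. With lurbinectedin, OGA stood first with 34.0 ± 1.14 CPM per kb, and GFPT1 had come down to 9.54 ± 1.08 (n = 3). The exon length covers every annotated exon of a gene, so these levels depend on which transcripts the cells use.

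Lurbinectedin alone lowered UGP2, UXS1 and GFPT1 to about the same share of control and raised OGA, with smaller rises of UGDH and GNE. With the combination the same 4 larger changes were called, and PGM3 and OGT rose as well. Teriflunomide alone raised UXS1 by a small amount. In edgeR's quasi-likelihood test with Benjamini-Hochberg adjustment over all 16683 genes, lurbinectedin against control called 6 of the 9 members (66.7%), 3 higher and 3 lower. Of all genes tested, 71.6% were called in that comparison, 36% higher and 35.7% lower, so the share called among the members is near the background. For the combination against control it was 8 of 9 members (88.9%), 5 higher and 3 lower, beside 68.4% of all genes (34.1% higher, 34.4% lower), and for the combination against teriflunomide 5 of 9 (55.6%), 2 higher and 3 lower, beside 70.9% (35.2% higher, 35.8% lower). The median log2 fold change of the members was 0.16 with lurbinectedin and 0.24 with the combination, and that of all genes 0.05 and 0.04. The CPM of the lurbinectedin and control libraries did not overlap for 8 of the 9 members, beside 83.2% of all genes. For the combination this held for 8 of 9 against control, beside 77.2%, and for 6 of 9 against teriflunomide, beside 70.7%. Libraries that do not overlap are thus common in these comparisons. These comparisons share libraries (the controls, or the combination) and are not independent of one another.

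Scaling bears on the small rises. With library size as the only scaling, the median over all genes of the log2 fold change moved from 0.05 to -0.18 with lurbinectedin and from 0.04 to -0.13 with the combination. The calls with lurbinectedin then split into 4313 higher and 6699 lower genes, in place of 5999 and 5954. Under that scaling UGP2, UXS1, GFPT1 and OGA kept their calls and directions, while UGDH, GNE, PGM3 and OGT were not called with lurbinectedin or with the combination. That scaling left 4 of 9 members called with lurbinectedin and 4 with the combination, beside 66% and 62.7% of all genes, and with no filter on low counts the combination called 4 members, beside 34.6% of a larger set of genes.

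**Figure D1:**
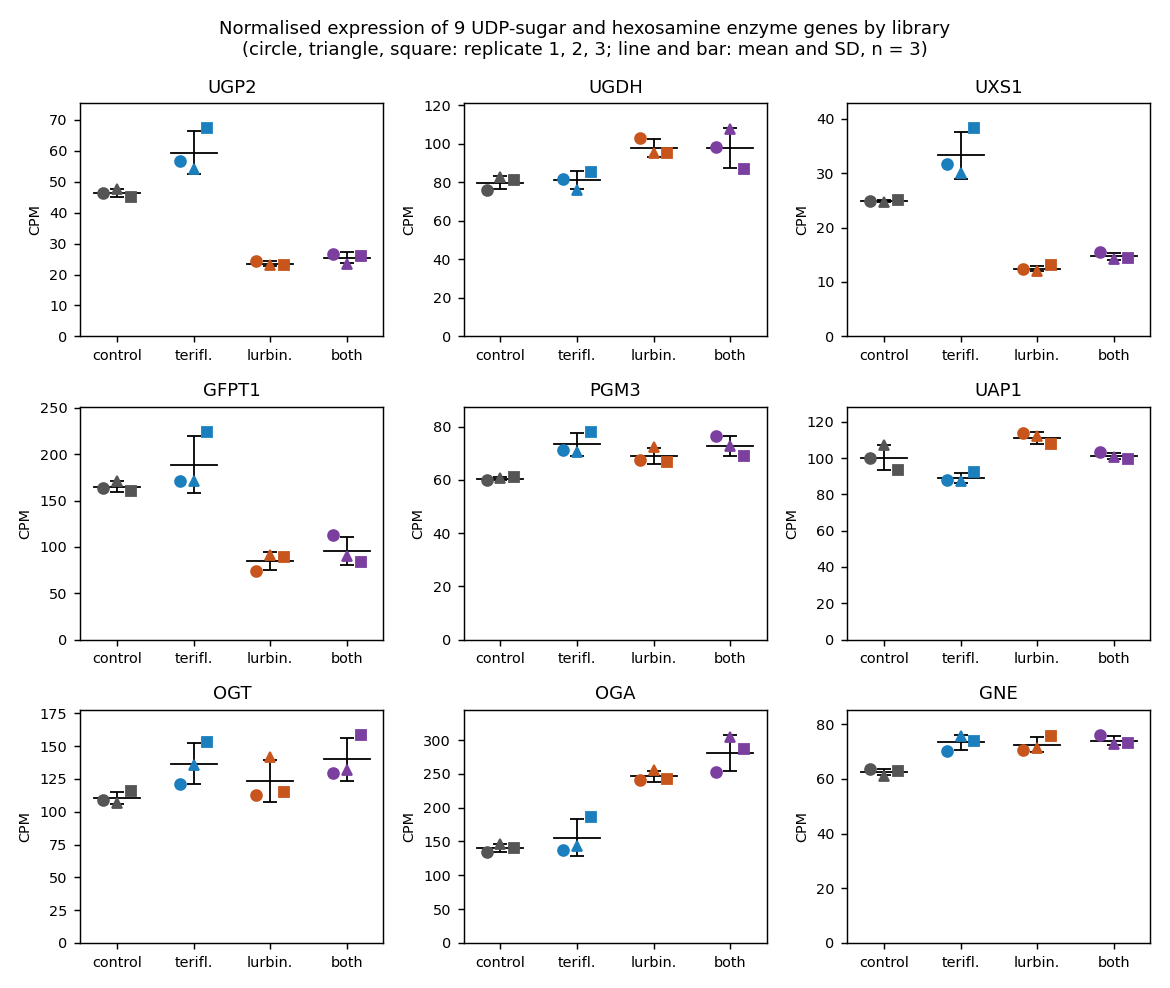
Normalised expression (CPM, linear axis from 0) of the 9 genes in each of the 12 libraries, by treatment group, with replicates 1, 2 and 3 as circle, triangle and square and with the mean and SD (n = 3). UGP2, UXS1 and GFPT1 lie lower in all 6 libraries with lurbinectedin than in all 6 without it, and OGA lies higher. Lurbinectedin and control libraries did not overlap for 83.2% of all genes tested. Teriflunomide replicate 3 is the highest teriflunomide library for 8 of the 9 genes.

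UGP2 (ENSG00000169764.16, chr2:63840952-63891562, plus strand, GRCh38) makes UDP-glucose from UTP. Its CPM was 46.5, 47.6 and 44.9 in the control libraries, 56.8, 54.1 and 67.3 under teriflunomide, 24.3, 23.1 and 23.1 under lurbinectedin, and 26.8, 23.4 and 26.0 under both. The 6 libraries with lurbinectedin were all below the 6 without it, the teriflunomide libraries were all above control, and the lurbinectedin and combination libraries overlapped. The lurbinectedin mean of 23.5 ± 0.700 CPM was 50.8% of the control mean of 46.3 ± 1.34 CPM (SD, n = 3), or -0.98 as log2 fold change (SE 0.111 and edgeR adjusted p = 2.36e-06). Against control the combination gave -0.87 (SE 0.110 and edgeR adjusted p = 8.87e-06), and against teriflunomide it gave -1.22 (SE 0.111 and edgeR adjusted p = 2.71e-07). The teriflunomide difference from control was 0.36 on the log2 scale (95% interval 0.13 to 0.59) and missed the threshold with an edgeR adjusted p of 0.0655. It passed in DESeq2 (0.35, adjusted p = 0.0137), and the adjusted p ranged from 0.0137 to 0.327 over all alternatives. Without teriflunomide replicate 3, the highest library, the difference was 0.26 (edgeR adjusted p = 0.0825).

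UXS1 (ENSG00000115652.15, chr2:106093308-106194301, minus strand), which makes UDP-xylose, had 24.9, 24.8 and 25 CPM in control, 31.7, 30.1 and 38.2 under teriflunomide, 12.3, 12 and 13.0 under lurbinectedin, and 15.5, 14.2 and 14.4 under both. The 4 groups did not overlap and ran in the order teriflunomide, control, combination, lurbinectedin. The lurbinectedin mean of 12.5 ± 0.522 CPM was 50.1% of the control mean of 24.9 ± 0.116 CPM (n = 3), a log2 fold change of -1.0 (SE 0.116 and edgeR adjusted p = 3.15e-06). The combination mean was 59.0% of control, with -0.76 against control (SE 0.115 and edgeR adjusted p = 4.47e-05) and -1.18 against teriflunomide (edgeR adjusted p = 5.86e-07). Although the combination libraries were all above the lurbinectedin libraries, the difference of 0.24 (95% interval -0.02 to 0.49) was not called (edgeR adjusted p = 0.346).

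UXS1 was also the single member called for teriflunomide alone. Its mean of 33.3 ± 4.32 CPM was 33.9% above control (n = 3), a log2 fold change of 0.42 (SE 0.113 and edgeR adjusted p = 0.0437). The call held without teriflunomide replicate 3 (0.31, edgeR adjusted p = 0.0479). It was lost without any 1 of the control or lurbinectedin replicates or without combination replicate 1, where the log2 fold change was 0.41 to 0.42 and the edgeR adjusted p 0.051 to 0.158. Of 7 other settings of scaling, filter, block, samples and tool it passed in 3, and over all alternatives the adjusted p ranged from 0.00516 to 0.23.

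UGDH (ENSG00000109814.12, chr4:39498755-39528311, minus strand) did not follow UGP2 and UXS1, the enzymes before and after it in the route to UDP-xylose. Its CPM was 76.0, 82.5 and 81.2 in control, 81.6, 76.2 and 85.6 under teriflunomide, 103, 95 and 95.4 under lurbinectedin, and 98.1, 108 and 87.1 under both. The libraries with lurbinectedin were all above the control and teriflunomide libraries, by a margin smaller than the range within the combination group. UGDH rose by 0.29 on the log2 scale with lurbinectedin (SE 0.101 and edgeR adjusted p = 0.0184), by 0.29 with the combination (edgeR adjusted p = 0.0201), and by 0.27 in the combination against teriflunomide (edgeR adjusted p = 0.0283). With teriflunomide alone the difference was 0.02 (95% interval -0.19 to 0.24). These calls depend on single libraries and on the setting. The rise with lurbinectedin was not called without control replicate 1 or lurbinectedin replicate 1 (0.24 to 0.25, edgeR adjusted p 0.0854 to 0.0872). That with the combination was not called without control replicate 1, control replicate 3 or combination replicate 2 (0.21 to 0.29, edgeR adjusted p 0.052 to 0.0938). Against teriflunomide it was not called without teriflunomide replicate 1 or 2 or combination replicate 1 or 2 (0.20 to 0.27, edgeR adjusted p 0.0506 to 0.12). With library size only or no filter, all 3 calls were lost. The call against teriflunomide was lost in 4 of the 7 other settings, also with the replicate block and only the groups compared (0.17 to 0.28, edgeR adjusted p 0.0535 to 0.198). UGDH shares 293 exon bases (7.28% of its exons) with UGDH-AS1 on the opposite strand, which had a mean of 37.9 counts, and since the use of strand is not given, reads there cannot be assigned to one of them.

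GFPT1 (ENSG00000198380.13, chr2:69319780-69387250, minus strand), the entry enzyme of the hexosamine pathway, had 164, 171 and 160 CPM in control, 171, 171 and 224 under teriflunomide, 73.5, 90.9 and 89.0 under lurbinectedin, and 112, 90.0 and 83.3 under both. As for UGP2, the libraries with lurbinectedin were all below those without it, and the lurbinectedin and combination libraries overlapped. The lurbinectedin mean of 84.4 ± 9.52 CPM was 51.2% of the control mean of 165 ± 5.77 CPM (n = 3), a log2 fold change of -0.97 (SE 0.139 and edgeR adjusted p = 2.48e-05). The combination gave -0.79 against control (SE 0.138 and edgeR adjusted p = 0.000162) and -0.99 against teriflunomide (edgeR adjusted p = 2.1e-05). The teriflunomide difference of 0.19 was not called (edgeR adjusted p = 0.393), and without replicate 3 it was 0.05. UGP2, UXS1 and GFPT1 kept their 3 lower calls, and OGA its 3 higher calls, in each of the 7 other settings and each of the 12 fits without 1 library.

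The promoters of the genes that fell together and of the members called higher in each of these 3 comparisons, OGA and UGDH, are shown because they are the stretches where transcription starts. The sequences are from RefSeq on GRCh38.p14, in which all 9 members were found, and run from 250 bases before to 50 bases after the start nearest to the 5′ end of the gene in the files, which for UGDH lies 872 bases away. They are written 5′ to 3′ on the strand of the gene, with capitals for the motifs found. The letters searched on both strands were GGGCGG (known as the GC box), the CCAAT box, the TATA box as TATAAA, and TGACGTG (the core of an unfolded protein response element).
UGP2 (chr2:63840719-63841018, plus strand): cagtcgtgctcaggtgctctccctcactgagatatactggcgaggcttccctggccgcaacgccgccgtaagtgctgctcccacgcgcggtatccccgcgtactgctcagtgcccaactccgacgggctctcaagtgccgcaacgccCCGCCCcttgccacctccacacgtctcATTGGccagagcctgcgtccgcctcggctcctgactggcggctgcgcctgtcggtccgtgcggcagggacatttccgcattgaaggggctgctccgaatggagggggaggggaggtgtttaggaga
UXS1 (chr2:106194252-106194551, minus strand): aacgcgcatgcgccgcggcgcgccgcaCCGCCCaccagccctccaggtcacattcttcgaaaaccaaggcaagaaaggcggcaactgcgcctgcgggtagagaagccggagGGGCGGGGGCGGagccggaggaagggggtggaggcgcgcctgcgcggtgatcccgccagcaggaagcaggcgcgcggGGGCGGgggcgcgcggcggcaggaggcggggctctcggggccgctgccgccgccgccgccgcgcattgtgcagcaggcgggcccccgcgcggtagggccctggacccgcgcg
GFPT1 (chr2:69387178-69387477, minus strand): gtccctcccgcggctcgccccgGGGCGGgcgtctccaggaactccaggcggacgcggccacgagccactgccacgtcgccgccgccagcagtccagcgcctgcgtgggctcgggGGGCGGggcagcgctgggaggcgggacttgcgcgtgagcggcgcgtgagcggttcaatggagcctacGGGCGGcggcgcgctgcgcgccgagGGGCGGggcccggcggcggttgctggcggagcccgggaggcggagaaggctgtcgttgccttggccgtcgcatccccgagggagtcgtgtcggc
OGA (chr10:101818395-101818694, minus strand): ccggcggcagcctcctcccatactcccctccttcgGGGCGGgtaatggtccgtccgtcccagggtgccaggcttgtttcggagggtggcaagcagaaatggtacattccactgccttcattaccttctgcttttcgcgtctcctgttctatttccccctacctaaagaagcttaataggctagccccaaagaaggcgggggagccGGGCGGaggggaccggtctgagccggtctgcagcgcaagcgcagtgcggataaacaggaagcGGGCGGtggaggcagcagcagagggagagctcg
UGDH (chr4:39527390-39527689, minus strand): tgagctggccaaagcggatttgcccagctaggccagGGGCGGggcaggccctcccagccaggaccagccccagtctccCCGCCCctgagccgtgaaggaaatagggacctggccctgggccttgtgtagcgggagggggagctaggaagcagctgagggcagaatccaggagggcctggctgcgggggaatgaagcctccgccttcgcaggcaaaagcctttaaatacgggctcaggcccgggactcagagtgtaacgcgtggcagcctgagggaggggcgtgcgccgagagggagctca
UXS1 and GFPT1 held 4 GC boxes each, UGP2 held 1 GC box and 1 CCAAT, OGA held 3 GC boxes and UGDH held 2. A GC box was found in 45.0% and CCAAT in 34.6% of the 35116 promoters of the same length. The GC content was 77.7% for UXS1, 78.0% for GFPT1, 66.0% for UGP2, 61.7% for OGA and 66.7% for UGDH, against a median of 58.7% over all promoters. Among the members not shown, UAP1 held the sole TGACGTG, found in 1.97% of all promoters, GNE held no GC box and had a GC content of 43.3%, and TATAAA was in none of the 9 but in 11.5% of all. These matches describe the letters of the window and nothing more.

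**Figure D2:**
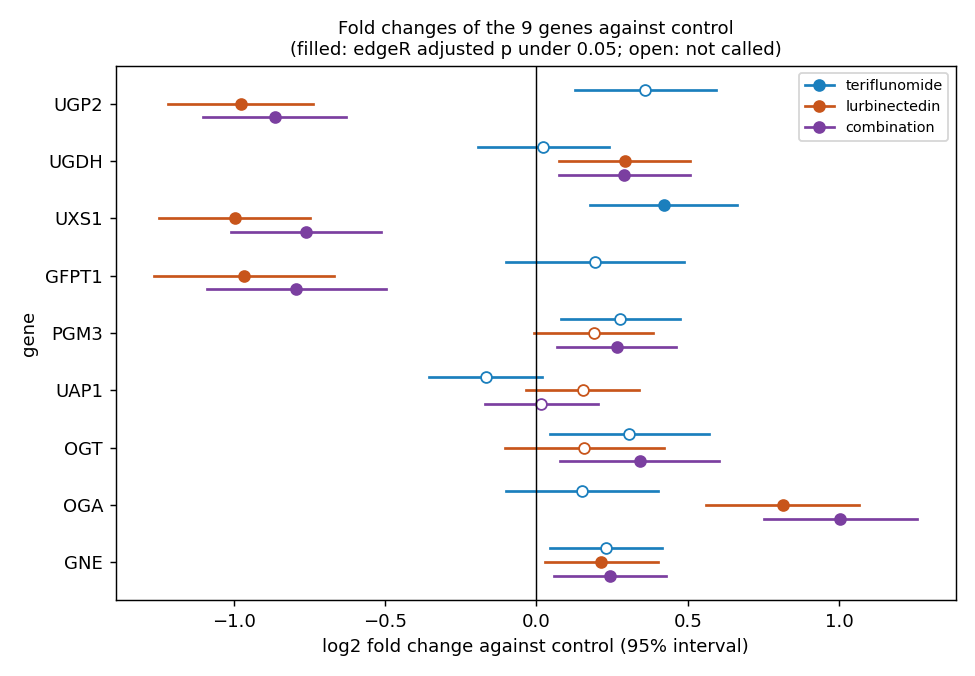
Log2 fold change against control of each of the 9 genes with teriflunomide, lurbinectedin and the combination (points), with 95% intervals from the edgeR fit over 12 libraries (lines). Filled points passed an adjusted p of 0.05, and the lurbinectedin values of UGP2, UXS1 and GFPT1 lie between -1.0 and -0.97, whereas OGA lies at 0.81.

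PGM3 (ENSG00000013375.16, chr6:83161150-83193936, minus strand), which acts after GFPT1, had 60.1, 60.6 and 61.0 CPM in control, 71.2, 70.7 and 78.2 under teriflunomide, 67.7, 72.6 and 66.8 under lurbinectedin, and 76.7, 72.7 and 69.0 under both. Every treated library was above every control library, and the 3 treated groups overlapped. The combination mean of 72.8 ± 3.85 CPM stood against 60.6 ± 0.475 CPM in control (n = 3), a rise of 0.27 on the log2 scale (SE 0.0917 and edgeR adjusted p = 0.0195). It was lost without any 1 control replicate or combination replicate 1 (0.22 to 0.26, edgeR adjusted p 0.0577 to 0.07). The differences of 0.28 with teriflunomide (95% interval 0.08 to 0.47, edgeR adjusted p = 0.0871) and 0.19 with lurbinectedin (95% interval -0.01 to 0.39, edgeR adjusted p = 0.0787) were not called. Without teriflunomide replicate 3 the second was called (0.17, edgeR adjusted p = 0.0401, in a range of 0.0101 to 0.756 over all alternatives), although that library is in neither of these groups. PGM3 shares 1087 exon bases (14.5%) with DOP1A on the opposite strand, which had a mean of 250 counts, so part of its reads cannot be assigned.

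UAP1 (ENSG00000117143.13, chr1:162561506-162599842, plus strand), the other enzyme that consumes UTP, was called in none of the comparisons in the edgeR fit reported here. Its CPM was 100, 107 and 93.2 in control, 88.0, 87.2 and 92.2 under teriflunomide, 114, 112 and 108 under lurbinectedin, and 103, 101 and 99.6 under both. The teriflunomide libraries were all below control, the lurbinectedin libraries all above it, and the combination libraries within the control range. The log2 difference from control was -0.17 with teriflunomide (95% interval -0.35 to 0.02, edgeR adjusted p = 0.247), 0.15 with lurbinectedin (95% interval -0.03 to 0.34, edgeR adjusted p = 0.129) and 0.02 with the combination (95% interval -0.17 to 0.20, edgeR adjusted p = 0.887). With library size as the only scaling the lurbinectedin value was -0.08. It was called higher in 2 of the 7 other settings, the 1 CPM filter and only the groups compared (0.13 to 0.20, edgeR adjusted p 0.0334 to 0.046). Without teriflunomide replicate 3, the combination against teriflunomide was called at 0.20 (edgeR adjusted p = 0.0323), in place of 0.18 (edgeR adjusted p = 0.0739), and with the 1 CPM filter it was called at 0.23 (edgeR adjusted p = 0.022). The interval with lurbinectedin does not reach a fall of the size seen for UGP2, the other UTP-consuming enzyme.

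OGA (ENSG00000198408.14, chr10:101784443-101818465, minus strand), which removes O-GlcNAc, showed the largest rise of the 9 with lurbinectedin and with the combination. Its CPM was 135, 146 and 140 in control, 137, 143 and 187 under teriflunomide, 241, 256 and 242 under lurbinectedin, and 253, 305 and 287 under both. The libraries with lurbinectedin were all above those without it, and teriflunomide replicate 3 stood above the other libraries without lurbinectedin. The lurbinectedin mean of 247 ± 8.26 CPM was 75.8% above the control mean of 140 ± 5.47 CPM (n = 3), a log2 fold change of 0.81 (SE 0.118 and edgeR adjusted p = 2.73e-05). The combination gave 1.0 against control (SE 0.118 and edgeR adjusted p = 4.25e-06) and 0.85 against teriflunomide (edgeR adjusted p = 1.8e-05). With teriflunomide alone the difference was 0.15 (95% interval -0.10 to 0.40, edgeR adjusted p = 0.441), and without replicate 3 it was -0.004.

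OGT (ENSG00000147162.14, chrX:71533104-71575892, plus strand), the transferase that adds O-GlcNAc, had 109, 106 and 116 CPM in control, 121, 136 and 153 under teriflunomide, 113, 142 and 115 under lurbinectedin, and 129, 132 and 159 under both. The teriflunomide and combination libraries were all above control, and the lurbinectedin libraries overlapped it. OGT rose with the combination by 0.34 on the log2 scale (SE 0.122 and edgeR adjusted p = 0.0230), a call lost without control replicate 1, control replicate 2 or combination replicate 3 (0.24 to 0.32, edgeR adjusted p 0.0689 to 0.104). The differences of 0.31 with teriflunomide (95% interval 0.05 to 0.57, edgeR adjusted p = 0.142) and 0.16 with lurbinectedin (95% interval -0.10 to 0.42, edgeR adjusted p = 0.257) were not called.

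As a description of the balance between the transferase and the hydrolase messages, the ratio of OGT counts to OGA counts was 0.812, 0.731 and 0.823 in control, 0.886, 0.947 and 0.819 under teriflunomide, 0.467, 0.553 and 0.477 under lurbinectedin, and 0.512, 0.432 and 0.553 under both. Each library with lurbinectedin had a lower ratio than each library without it. The group means were 0.789 ± 0.0499, 0.884 ± 0.0642, 0.499 ± 0.0472 and 0.499 ± 0.0613 (SD, n = 3). The ratio depends on the lengths of both genes, not on library scaling, and only its difference between groups can be read. In teriflunomide replicate 3 both genes were high, and its ratio of 0.819 lay within the control range.

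**Figure D3:**
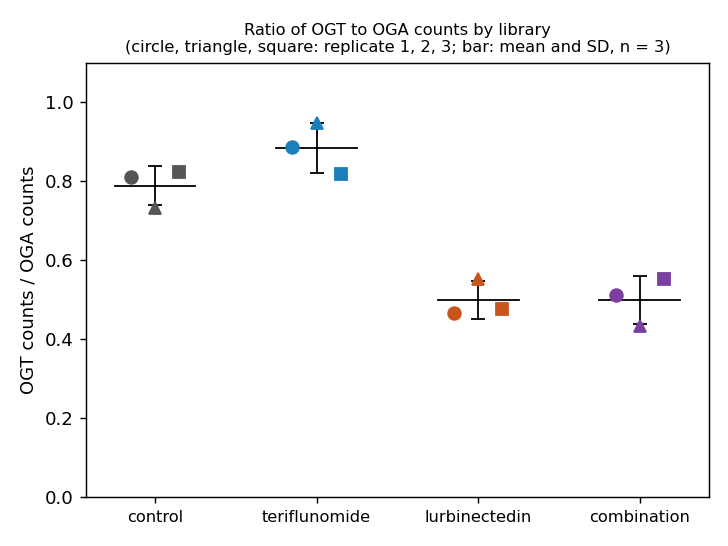
Ratio of OGT counts to OGA counts (linear axis from 0) in each of the 12 libraries by treatment group, with replicates 1, 2 and 3 as circle, triangle and square and with the mean and SD (n = 3). The 6 libraries with lurbinectedin lie between 0.432 and 0.553, and the 6 without it between 0.731 and 0.947.

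GNE (ENSG00000159921.20, chr9:36214441-36277042, minus strand), the first enzyme of sialic acid synthesis, had 63.6, 61.2 and 62.8 CPM in control, 70.3, 75.8 and 73.9 under teriflunomide, 70.7, 71.4 and 75.5 under lurbinectedin, and 76.1, 72.7 and 73.2 under both. Like PGM3, it was higher in every treated library than in every control library. GNE rose by 0.21 with lurbinectedin (SE 0.0866 and edgeR adjusted p = 0.0389) and by 0.24 with the combination (SE 0.0866 and edgeR adjusted p = 0.0225), both on the log2 scale. With teriflunomide the difference was 0.23 (95% interval 0.04 to 0.42) and was not called (edgeR adjusted p = 0.125). The lurbinectedin call was lost without any 1 of the control or lurbinectedin replicates or of teriflunomide replicates 1 and 2 (0.18 to 0.22, edgeR adjusted p 0.0534 to 0.145). It was also lost in 4 of the 7 other settings, DESeq2 size factors, library size only, no filter and the replicate block (-0.02 to 0.21, edgeR adjusted p 0.0649 to 0.908), with -0.02 for library size only. The combination call was lost without any 1 control replicate or combination replicate 1 (0.22 to 0.25, edgeR adjusted p 0.0569 to 0.0873).

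Teriflunomide alone called 1 of the 9 members (11.1%), UXS1, beside 6.01% of all genes, 3.88% higher and 2.13% lower. At an unadjusted p under 0.05 there were 5 members, UGP2, UXS1, PGM3, OGT and GNE, all higher, beside 4143 of 16683 genes. DESeq2 called 4, namely UGP2 (0.35, adjusted p = 0.0137), UXS1 (0.41, adjusted p = 0.00516), PGM3 (0.26, adjusted p = 0.0139) and GNE (0.22, adjusted p = 0.028). Beside this it called 1796 of 35575 genes (5.05%). That larger set includes the genes with low counts that the filter removes, so its share cannot be set directly against 6.01% of 16683 genes. The teriflunomide and control libraries did not overlap for 6 of the 9 members, 5 higher and UAP1 lower, beside 36.8% of all genes. Leaving out teriflunomide replicate 3 and combination replicate 2 together, an alternative chosen after seeing the data, also gave 4 calls with edgeR: UGP2 (0.26, adjusted p = 0.029), UXS1 (0.31, adjusted p = 0.0177), PGM3 (0.23, adjusted p = 0.0436) and GNE (0.22, adjusted p = 0.0391). In that fit 16.3% of all genes were called. No member was called by edgeR with library size only (1.59% of all genes), no filter (5.06% of 35577 genes), the replicate block (2.49%) or only the groups compared (1.83%). DHODH, the target of teriflunomide, had 18.3, 17.8 and 19.2 CPM in control and 13.1, 13.0 and 11.9 with the drug. It fell by 0.54 on the log2 scale (edgeR adjusted p = 0.0186), a call lost without any 1 control replicate (-0.57 to -0.51, edgeR adjusted p 0.0671 to 0.104) and also with library size only or the replicate block (-0.62 to -0.54, edgeR adjusted p 0.0568 to 0.0683). With lurbinectedin DHODH rose by 0.43 (edgeR adjusted p = 0.00435), a call lost with library size only or no filter (0.19 to 0.36, edgeR adjusted p 0.0791 to 0.281).

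Adding teriflunomide to lurbinectedin gave no called member in edgeR, none at an unadjusted p under 0.05 and none in DESeq2. Beside this, edgeR called 0% of 16683 genes and DESeq2 1.57% of 35575, a set that includes genes with low counts. In that edgeR fit 2599 of 16683 genes had an unadjusted p under 0.05. The background of called genes rests on single libraries. There edgeR called 2067 of 17072 genes without teriflunomide replicate 3 and 259 of 17043 without combination replicate 2. Without both it called 3640 of 16945, and again no member was called in any of these fits. The combination and lurbinectedin libraries did not overlap for 2 of the 9 members, UXS1 higher and UAP1 lower, beside 23.7% of all genes. The widest intervals of the difference were those of GFPT1, from -0.12 to 0.47 on the log2 scale, and of OGT, from -0.08 to 0.44. In the interaction, the effect of teriflunomide with lurbinectedin minus its effect without it, no member was called by edgeR or DESeq2 or had an unadjusted p under 0.05. Beside this, edgeR called 0.258% of 16683 genes and DESeq2 0.635% of 35575. In that edgeR fit 1726 of 16683 genes had an unadjusted p under 0.05. The background of 43 called genes became 616 without teriflunomide replicate 3, 66 without combination replicate 2 and 1839 without both. It was 2 to 6 genes without any 1 control or lurbinectedin replicate, 12 without combination replicate 1, 24 without teriflunomide replicate 2 and 29 to 33 without teriflunomide replicate 1 or combination replicate 3, and no member was called in any of these fits. The interaction estimates ran from -0.25 for UGP2 (95% interval -0.58 to 0.09) to 0.04 for OGA (95% interval -0.32 to 0.40), so for none of these members was the effect of teriflunomide shown to differ with lurbinectedin present.

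Across the whole table, the response to lurbinectedin differed with the length of a gene on the chromosome. Among all tested nuclear genes, ordered by genomic span into 5 bins of equal number, the median log2 fold change with lurbinectedin was 0.28 in the bin from 16.3 to 35.9 kb, -0.36 from 35.9 to 82.9 kb and -1.86 above 82.9 kb. UXS1 spans 101 kb, GFPT1 67.5 kb, GNE 62.6 kb, UGP2 50.6 kb, OGT 42.8 kb, UAP1 38.3 kb, OGA 34.0 kb, PGM3 32.8 kb and UGDH 29.6 kb. UXS1, the longest member, fell less than the median of its bin (by 0.86 on the log2 scale), whereas UGP2 and GFPT1 lay 0.62 and 0.61 below theirs. GNE, OGT and UAP1, from the same bin as UGP2 and GFPT1, lay 0.57, 0.51 and 0.51 above it, and OGA lay 0.54 above the median of its own. UGDH and PGM3 were within 0.1 of their bin's median. The bin of UXS1 runs up to 2305 kb, so UXS1 at 101 kb lies near its short end. UAP1 and OGA lie near the 35.9 kb edge between their bins. The effect of a gene's place within its bin was not tested. Over the 9 genes, Spearman's rho between span and the log2 fold change was -0.72 with lurbinectedin, a description over few genes that share the same libraries. With teriflunomide alone, the median of all genes went from -0.09 in the shortest bin to 0.15 in the longest. In the longest bin 5.23% were called higher and 0.661% lower, and its member UXS1 had 0.42. For the combination against lurbinectedin the median went from -0.09 to 0.27, and UXS1 had 0.24. The part of span in the UXS1 values was not tested.

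**Figure D4:**
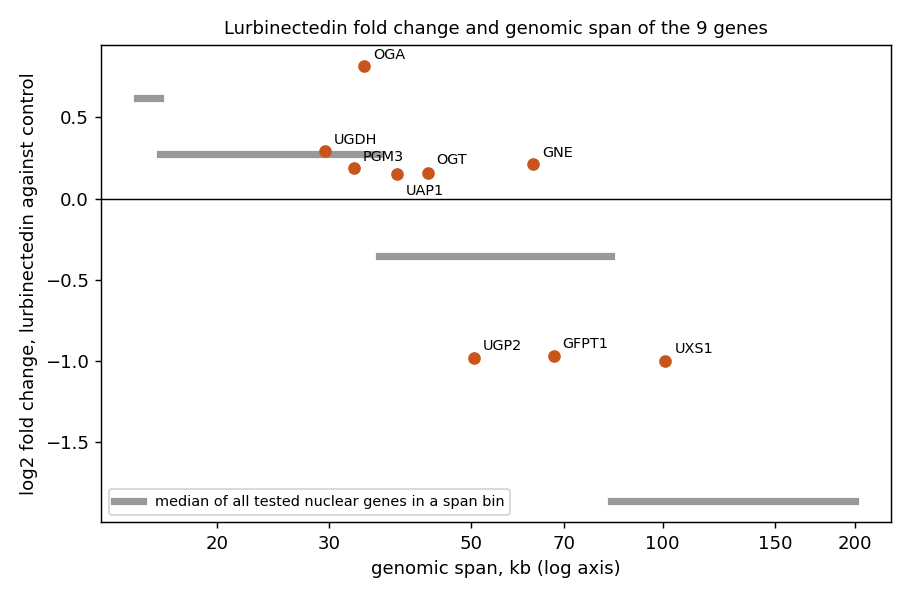
Log2 fold change with lurbinectedin against control (y axis) and genomic span in kb on a log axis (x axis) for the 9 genes (points), with the median of all tested nuclear genes in each of the span bins shown (grey bars, drawn only over the range of the axis). UGP2 and GFPT1 lie 0.62 and 0.61 below the bar of their bin and UXS1 0.86 above its own. The bin of UXS1 runs up to 2305 kb, beyond the axis, and UXS1 lies near its short end.

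The patterns most like those of the UTP-consuming members were found by Pearson correlation of log2 CPM over the 12 libraries. For UGP2 they were GPX8 (r = 0.997), FOLH1 (r = 0.996) and ITGA1 (r = 0.994), and for UAP1 RPS7P1 (r = 0.947), DNAJB6 (r = 0.926) and EIF4A1P2 (r = 0.923). The 12 libraries separate by lurbinectedin, so a gene that only differs between those sets already scores high. RPS7P1 and EIF4A1P2 are pseudogenes whose reads may come from their parent genes. Within the 6 libraries without lurbinectedin and the 6 with it, the correlation of UGP2 with UXS1 was 0.990 and 0.720, that of UGP2 with GFPT1 0.882 and 0.371, and that of UXS1 with GFPT1 0.856 and 0.642. These are given without a test, as each set joins a pair of treatment groups.

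Around the 9 members, 55 further genes of nucleotide-sugar metabolism were listed, of which 53 passed the filter. With lurbinectedin 15 of the 53 were called higher and 18 lower (62.3% in all, beside 71.6% of all genes). With the combination it was 14 higher and 19 lower (62.3%, beside 68.4% of all genes). Teriflunomide called 4 of 53 (7.55%, beside 6.01% of all genes), all higher: PGM2L1, SLC35D1, UGGT2 and HAS3. In DESeq2 the teriflunomide calls were 6 higher and 2 lower of 54 tested, beside 5.05% of 35575 genes, a set that includes genes with low counts. With library size as the only scaling PGM2L1 was the sole edgeR call, beside 1.59% of all genes.

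The enzymes around GFPT1 at the entry of the hexosamine route make, salvage or break down amino sugar phosphates. With lurbinectedin 4 of 7 such genes were called (57.1%), all higher: GFPT2, NAGK, AMDHD2 and GNPDA1. Of all genes 71.6% were called, 36% higher and 35.7% lower, and 7 genes are few for reading a direction. The edgeR and DESeq2 counts of lower genes were 0, as was that at an unadjusted p under 0.05. With teriflunomide edgeR called 0 of the 7, beside 6.01% of all genes, and DESeq2 called 1, GFPT2, beside 5.05% of 35575 genes. At an unadjusted p under 0.05 in edgeR there were 2 of the 7, beside 4143 of 16683 genes. With lurbinectedin and library size as the only scaling 3 were higher and 1, GNPNAT1, was lower, beside 66% of all genes called. NAGK, which salvages free GlcNAc, went from 9.21 ± 0.971 to 36.0 ± 1.33 CPM (n = 3), a log2 fold change of 1.97 (SE 0.158 and edgeR adjusted p = 7.44e-08). GFPT2, the paralog of GFPT1, had 17.2 ± 1.29 CPM in control and 22.3 ± 0.156 CPM with teriflunomide (n = 3), a difference of 0.38 that was not called (edgeR adjusted p = 0.0826). The median log2 fold change of the 7 was 0.76 with lurbinectedin and 0.89 with the combination, and that of all genes 0.05 and 0.04.

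Of 20 tested transferases that consume UDP-sugars (HAS2 and XYLT1 did not pass the filter), 11 fell and 5 rose with lurbinectedin, beside 35.7% of all genes lower and 36% higher. With the combination 12 fell and 4 rose, beside 34.4% lower and 34.1% higher. Genomic span was not compared for the 55 further genes. Of tested nuclear genes above 82.9 kb, 83.7% were called lower with lurbinectedin, and the part of span in these falls was not tested. EXT1, which lengthens heparan sulfate chains, went from 18.9 ± 0.365 to 1.51 ± 0.131 CPM (n = 3), a log2 fold change of -3.64 (edgeR adjusted p = 1.5e-10). UGGT2, a glucosyltransferase of glycoprotein folding in the endoplasmic reticulum, rose with teriflunomide from 26.8 ± 1.35 to 40.3 ± 7.16 CPM (n = 3), by 0.59 on the log2 scale (edgeR adjusted p = 0.0307).

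Of the 8 genes of UDP-glucose and galactose interconversion, 1 rose and 3 fell with lurbinectedin (4 of 8, beside 71.6% of all genes called). GALM, the galactose mutarotase, went from 19.3 ± 0.810 to 3.23 ± 0.233 CPM (n = 3), a log2 fold change of -2.58 (edgeR adjusted p = 1.8e-09), and PGM2L1, a sugar phosphate enzyme, rose with teriflunomide by 0.82 (edgeR adjusted p = 0.00977). Of the 5 carriers that bring UDP-sugars into the Golgi and endoplasmic reticulum, 2 rose and 2 fell with lurbinectedin, beside the same 71.6%. SLC35D1 rose with teriflunomide from 71.5 ± 0.335 to 102 ± 2.66 CPM (n = 3), by 0.51 (edgeR adjusted p = 0.00563), and SLC35D2 fell with lurbinectedin by 1.76 on the log2 scale (edgeR adjusted p = 7.56e-07).

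Of the 4 other sialic acid genes, NANS alone was called with lurbinectedin (25%, beside 71.6% of all genes), 0.32 higher (edgeR adjusted p = 0.0176). CMAS had a difference of 0.27 with teriflunomide that was not called (edgeR adjusted p = 0.0894). Of the 9 genes of GDP-sugar synthesis, which draws on GTP and not on UTP, 2 rose and 2 fell with lurbinectedin, a share below the 71.6% of all genes called. GMDS, the first enzyme of GDP-fucose synthesis, fell there from 9.89 ± 0.583 to 0.238 ± 0.0930 CPM (n = 3), with a log2 fold change of -5.39 (edgeR adjusted p = 5.77e-10). PMM2, a phosphomannomutase, differed by -0.37 with teriflunomide (edgeR adjusted p = 0.0557).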

How the data were processed

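The authors deposited raw counts of reads for each gene, 1 file of 60649 genes per library, in the column layout of featureCounts per the file headers. The extraction kit was RNeasy Plus Mini and the library kit KAPA mRNA HyperPrep, per the labels' protocols. The submitters' processing notes name fastp 0.23.2, STAR 2.7.9, Subread, featureCounts and the hg38 build, without role or order. The annotation release, the use of strand and the treatment of multi-mapping reads are not given in the sources used here. Of the gene identifiers, 37318 have the same version in GENCODE 29 and the same coordinates there. A reference list of gene names held 60507 of the identifiers (99.8%), and 42028 had a symbol.

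Samples were grouped by their treatment label. edgeR 4.0.16 in R 4.3.3 (limma 3.58.1) kept 16683 genes by filterByExpr, scaled libraries by TMM and fitted a robust quasi-likelihood model with 1 mean per group to all 12 libraries. The biological coefficient of variation was 14.5%. Genes were called in 6 comparisons where the Benjamini-Hochberg adjusted p over all genes tested was under 0.05. Standard errors come from the quasi-likelihood F statistic and intervals are 95%. The edgeR fit was tested on simulated counts, with changes planted in teriflunomide against control only. The planted changes were larger than that of any member with teriflunomide. The other comparisons, DESeq2, the alternatives and the lists were not simulated. Alternatives were 2 other scalings, 2 other filters, the replicate number as a block, only the groups compared, DESeq2 1.42.0, and leaving out each library.

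The members and lists were chosen with earlier results of these data known. The genes named are the 9 members, DHODH, in each wider list the gene with the smallest adjusted p for each single drug, and the 3 genes with the highest correlation to UGP2 and to UAP1. Genes of the wider lists that are named without values (such as HAS3 and GNPNAT1) make up small counts and were named after their values were seen. Promoters come from RefSeq GRCh38.p14. A marker gene of the list is not reported here.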

Additional observations from a re-analysis of the deposited data

How the results depend on the processing

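The 4 larger changes, the falls of UGP2, UXS1 and GFPT1 and the rise of OGA in all 3 comparisons that involve lurbinectedin against its absence, kept their direction and call under the 7 other settings and the 12 fits that left out 1 library. The count of members called with teriflunomide, 1, was 0 with library size as the only scaling, with no filter, with the replicate block and with only the groups compared, 4 with DESeq2, and 4 with teriflunomide replicate 3 and combination replicate 2 left out together (added after seeing the data). For the combination against control it was 4 in place of 8 with library size only and 4 with no filter. Leaving out 1 library gave 0 to 1 members with teriflunomide, 4 to 7 with lurbinectedin, 4 to 8 with the combination, 0 to 0 for the combination against lurbinectedin, 4 to 6 for the combination against teriflunomide and 0 to 0 for the interaction. Of all genes, 17030 to 17098 were tested in these fits. In the same order, 216 to 1555, 11118 to 13175, 10559 to 12786, 0 to 2067, 11404 to 12497 and 2 to 616 of them were called.

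With the replicate block the counts of members were 0, 5, 8, 0, 4 and 0 in that order, beside 415, 11591, 11044, 0, 11470 and 8 of 16683 genes. Same-numbered libraries did not deviate together (1 of 18 pair correlations over 0.1, range -0.40 to 0.14), so the numbers are not taken as a pairing.

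Of 1071 alternative values of single members, 939 kept direction and side of the threshold, 56 lost a call, 15 gained one and 61 changed sign. Of the 33 sign changes outside the single-library fits, GNE with lurbinectedin concerned a called member. With library size only, the log2 values of changed sign were UGDH -0.063 with teriflunomide, PGM3 -0.045, UAP1 -0.081, OGT -0.075 and GNE -0.019 with lurbinectedin, UAP1 -0.15 with the combination, UGDH 0.054 in the combination against lurbinectedin, OGT -0.032 and GNE -0.072 in the combination against teriflunomide, UGDH 0.12, GFPT1 0.14 and OGT 0.042 in the interaction. With no filter, the log2 values of changed sign were UGDH -0.0049 with teriflunomide, UAP1 -0.044 with the combination, UGDH 0.012 in the combination against lurbinectedin, GNE -0.020 in the combination against teriflunomide, UGDH 0.017 and GFPT1 0.025 in the interaction. With only the groups compared, the log2 values of changed sign were UGDH -0.0051 with teriflunomide, UGDH 0.0054 in the combination against lurbinectedin. Without teriflunomide replicate 3 and combination replicate 2 together, the log2 values of changed sign were UGDH -0.019 and OGA -0.0026 with teriflunomide, PGM3 0.030 in the combination against teriflunomide, GFPT1 0.16 and OGT 0.0092 in the interaction. With DESeq2 size factors in edgeR, the log2 values of changed sign were UGDH 0.0089 in the combination against lurbinectedin, GFPT1 0.0026 in the interaction. With a filter of 1 CPM, the log2 values of changed sign were UGDH 0.0024 in the combination against lurbinectedin, PGM3 0.038 in the combination against teriflunomide. In DESeq2, the log2 values of changed sign were UAP1 -0.019 with the combination, UGDH 0.0070 in the combination against lurbinectedin, GNE -0.0078 in the combination against teriflunomide, GFPT1 0.0037 in the interaction. Leaving out 1 library turned the sign of members that were not called, over ranges of UGDH -0.020 to 0.068 and OGA -0.0035 to 0.24 with teriflunomide, UAP1 -0.040 to 0.060 with the combination. The other such ranges were UGDH -0.076 to 0.073 in the combination against lurbinectedin, PGM3 -0.048 to 0.029, OGT -0.067 to 0.12 and GNE -0.024 to 0.031 in the combination against teriflunomide, UGDH -0.087 to 0.051, GFPT1 -0.14 to 0.13, UAP1 -0.024 to 0.077, OGT -0.23 to 0.0082 and OGA -0.046 to 0.20 in the interaction. The cause was not tested beyond the change of scale, tested genes or libraries that each alternative makes.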
